A study of Sus scrofa with 61 samples.

Results

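The comparison described here sets the longissimus muscle of MSLW pig fetuses at day 110 of gestation against that of MSLW fetuses at day 90. MSLW fetuses are crossbred, with a Large White (LW) sow and a Meishan (MS) boar. They were chosen by their labels alone, and they make up 13 of the 61 fetuses of the series, 8 at day 90 and 5 at day 110. The study asked how fetal muscle matures before birth in a breed with high mortality at birth, LW, and a breed with low mortality, MS. Expression was measured in total RNA on porcine 1-colour arrays of 60-base oligonucleotides, with the Cy3-labelled sample of 1 fetus on each. The genotypes used for comparison are purebred LW (8 fetuses at day 90 and 9 at day 110), purebred MS (8 and 7) and the reciprocal cross LWMS, from the mating of a LW boar to a MS sow (8 and 8). According to the study's methods all fetuses were males taken by caesarean, and sows received mixed LW and MS semen, so that MSLW and LW fetuses can be littermates. The labels do not name the sow, so littermates count here as separate fetuses.

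In the pig most muscle fibres are formed before the last weeks of gestation. Fibres then grow, replace embryonic and neonatal forms of contractile proteins by adult ones, and build up glycogen, mitochondria and the calcium stores that contraction needs. Cortisol and thyroid hormone rise in fetal blood toward term in pigs and other mammals and are known to drive the maturation of several organs, and a newborn piglet relies on its muscle to produce heat by shivering.

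Values are log2 of the scanner's background-corrected spot intensity after quantile normalization over the 61 arrays. A change is the mean at day 110 minus the mean at day 90 on this log2 scale, written as change ± standard error (SE) from a linear model of the 8 groups (limma), and it is called where the Benjamini-Hochberg adjusted p over all 42436 measured probes is under 1%. Values of the day-110 fetuses are always listed from replicate 1 to replicate 5. A gene with several probes is represented by its probe of highest mean value, its main probe, and levels of different probes are not compared.

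The arrays of day-110 replicate 3 and day-90 replicate 2 stood apart from their groups. Between 36832 and 45431 probes were well above background on the day-90 arrays and between 40882 and 43475 on the day-110 arrays, and the lowest of these counts was that of replicate 2 at day 90. The same array had 752 spots marked as non-uniform, against a group median of 23.5. Replicate 8 at day 90 had 537 such spots, but it was not left out in any of the alternatives. On the second principal component (14.2% of the variance of the 13 arrays) day-90 replicate 2 scored -138.71, where the other day-90 arrays scored between 8.77 and 38.43. On the first component (53.3%) the day-90 fetuses scored between -85.91 and -57.04, and the day-110 fetuses scored 130.78, 111.81, 53.37, 111.19 and 104.96. Replicate 3 at day 110 therefore lay on the day-110 side, but nearer to day 90 than its group. It was the day-110 fetus closest to the day-90 mean for 54.6% of the probes called, against 9.1% to 13.4% for each of the other 4. The 18932 probes called became 19124 when both arrays were left out.

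All 8 markers of skeletal muscle fibres were well above background on each of the 13 arrays. Their summed linear intensity was 1812181 to 1906197 at day 90 and 1988296 to 2123248 at day 110, with 4 of the 8 called higher and 1 lower. Markers of some other cells in the sample moved as well. All 6 fibroblast markers were called lower, and their summed intensity was 423348 to 535892 at day 90 against 130473, 147083, 213559, 137584 and 133265 at day 110. All 4 measured markers of tendon and cartilage were called lower (sum 3737 to 7467 against 298 to 998), as were 4 of 5 endothelial markers, with 1 higher (54909 to 74291 against 31091 to 41507). In whole muscle, fewer cells of a type and less RNA per cell cannot be told apart. Smaller counts were called for the remaining lists, with 2 of 4 red cell and 2 of 6 leukocyte markers lower, and 3 of 5 Schwann cell, 2 of 5 smooth muscle, 1 of 5 adipocyte and 1 of 2 satellite cell markers higher. Over all genes 21.9% were called higher and 27.8% lower, and the leukocyte and adipocyte counts lay near these shares. With so few markers per list, no change of these cells is read from the smaller counts. The single adipocyte call was lost (0 higher) without day-110 replicate 1 or 5, the single satellite call without day-110 replicate 1, 2, 4 or 5 or day-90 replicate 2, and 1 of the 2 smooth muscle calls without day-110 replicate 1 or 2.

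Age changed 18932 of the 42436 probes in MSLW muscle, that is 44.6%, with 8825 higher and 10107 lower at day 110. By gene, 5217 of 10494 main probes were called (49.7%), 2302 of them higher (21.9%) and 2915 lower (27.8%). These shares are the background against which the marker counts above and every count below have to be read. The median absolute change of the called genes was 0.77, the median change of all genes was close to 0 (-0.003), and 1785 genes (17%) changed by more than 1, of which 723 were higher (6.89%) and 1062 lower (10.1%). Of the called genes, 4666 had the same sign on all 5 slides that hold 1 MSLW fetus of each age. Those slides hold arrays that made the calls, so this count is a description and not independent support. Scaling each array to its 75th percentile in place of quantile normalization shifted the median of all probes to 0.10 and turned the split to 10106 higher and 8738 lower. The balance of rises and falls, and the sign of small changes, therefore depend on the normalization.

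Among genes well above background on 80% or more of the arrays of both ages and with 1 sign on all 5 slides that hold both, those with the largest rises served different functions. *FKBP5*, a co-chaperone of steroid receptors whose own transcription responds to glucocorticoids, ranged from 6.13 to 6.98 (median 6.69) at day 90. At day 110 it measured 11.77, 11.60, 9.26, 11.27 and 10.76, a change of 4.31 ± 0.28. *CA7*, a cytosolic carbonic anhydrase, measured 4.75 to 6.46 (median 4.98) at day 90 and 10.22, 9.91, 9.57, 10.55 and 10.13 at day 110 (change 4.83 ± 0.33). The membrane-bound carbonic anhydrase *CA9* measured 7.55 to 8.94 (median 8.66) at day 90 and 12.65, 12.69, 11.61, 12.71 and 12.81 at day 110 (change 3.90 ± 0.24). Both carbonic anhydrases therefore lay more than 2 log2 units above their highest day-90 value in every day-110 fetus. *CKMT2*, the sarcomeric creatine kinase of mitochondria, measured 11.74 to 12.46 (median 12.13) at day 90 and rose to 15.47, 15.46, 14.74, 15.85 and 15.35 at day 110 (change 3.27 ± 0.17). The angiotensin precursor *AGT* measured 8.02 to 9.56 (median 8.15) at day 90 and 12.93, 12.79, 10.59, 12.37 and 13.24 at day 110, with replicate 3 more than 1 unit below its group. Other large rises were those of *TRNP1* (3.87 ± 0.27), the phosphoinositide phosphatase *MTMR7* (3.57 ± 0.23), the cystatin *CST6* (3.38 ± 0.48), *MUSTN1*, named for its expression in the developing musculoskeletal system (3.38 ± 0.27), *LRRC2* (3.31 ± 0.24) and *ACR*, known as a protease of the sperm acrosome (3.17 ± 0.26).

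Within the same limits, the largest fall was that of *MYL7*, the atrial form of the regulatory myosin light chain. It measured 13.90 to 15.62 (median 14.62) at day 90 and 10.84, 9.75, 11.48, 10.22 and 9.58 at day 110, a change of -4.26 ± 0.43 or 19.1-fold. *NOV*, a secreted matricellular protein, measured 9.75 to 10.18 (median 9.89) at day 90 and fell to 5.95, 6.21, 7.18, 5.31 and 5.32 at day 110 (change -3.93 ± 0.23). The matrix protein periostin, *POSTN*, measured 15.07 to 15.54 (median 15.29) at day 90 and fell to 11.84, 11.77, 12.77, 11.03 and 11.55 at day 110 (change -3.50 ± 0.22). Most of the other large falls were in genes of dividing cells. They included *KIF23*, a kinesin of the final separation of daughter cells (-3.89 ± 0.38), *PCLAF*, a partner of the replication clamp (-3.65 ± 0.30), *FAM64A*, a regulator of mitosis (-3.55 ± 0.25), the ribonucleotide reductase subunit *RRM2* (-3.52 ± 0.24), the ubiquitin-conjugating enzyme *UBE2C* (-3.43 ± 0.25) and *TCF19*, a factor of the entry into DNA synthesis (-3.39 ± 0.26). *ENOSF1*, whose human counterpart overlaps the thymidylate synthase gene on the opposite strand, changed by -3.45 ± 0.35. The secreted protein *C1QTNF3* (-3.72 ± 0.29) and the cytokine *IL18* (-3.60 ± 0.16) completed the list. In none of these 23 genes did the ages overlap, and replicate 3 was the day-110 fetus nearest to day 90 in 22 of them, the exception being *MUSTN1*. They were picked as the largest changes of this contrast, so their size and their lack of overlap are a description. The share of all genes without overlap is not given here, so later remarks on overlap also describe single genes only. A further 18 genes fell by more than the smallest of these 12 falls, and 5 rose by more than the smallest named rise, but were well above background on fewer arrays than that at 1 age or both. The largest such fall, named after its value was seen, was that of *C19ORF69* (-4.77), which was well above background on all 8 day-90 arrays and on 3 of 5 at day 110.

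**Figure D1:**
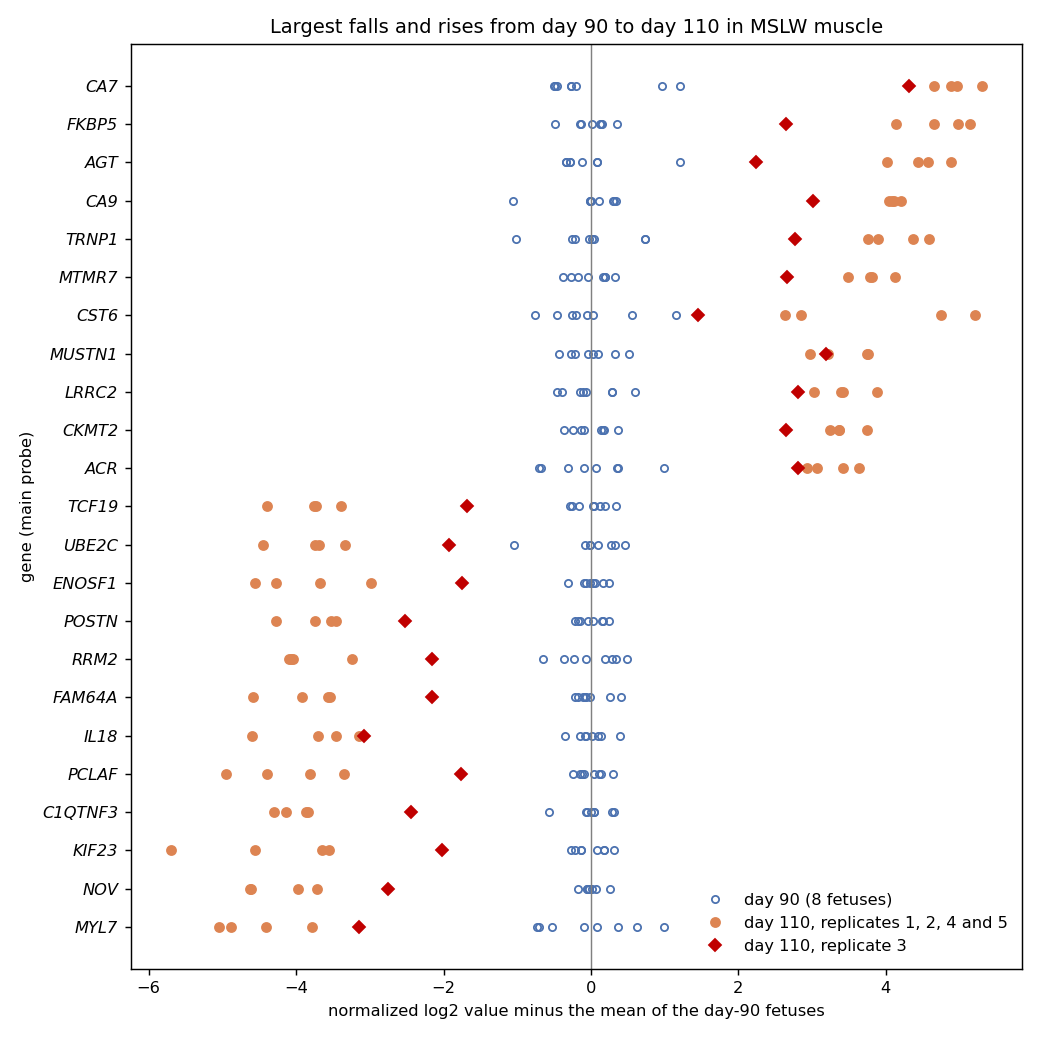
Normalized log2 value of each MSLW fetus minus the mean of the day-90 fetuses, for 11 genes with large rises and the 12 with the largest fall among genes well above background on 80% or more of the arrays of both ages (1 point per fetus, main probe). Open circles are the 8 day-90 fetuses, filled circles are day-110 replicates 1, 2, 4 and 5, and diamonds are replicate 3. The ages do not overlap in any of the 23 genes, and replicate 3 is the day-110 point closest to 0 in 22.

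Genes of cell division fell together. Of 26 measured genes of mitosis and the spindle, 25 were called lower and none higher, with a median change of -2.74 against -0.003 over all genes. *TOP2A*, the topoisomerase that untangles replicated chromosomes, measured 11.31 to 12.03 (median 11.80) at day 90 and 7.51, 8.29, 9.78, 8.47 and 7.48 at day 110 (change -3.38 ± 0.28). *STMN1*, which destabilizes microtubules, measured 13.93 to 14.51 (median 14.27) at day 90 and 11.07, 11.72, 12.54, 11.53 and 11.27 at day 110 (change -2.66 ± 0.14), and the spindle protein *NUSAP1* measured 10.59 to 11.18 (median 10.84) at day 90 and 7.58, 7.96, 9.20, 8.09 and 7.98 at day 110 (change -2.70 ± 0.17). In *TOP2A*, *STMN1* and *NUSAP1* replicate 3 was the highest of the day-110 fetuses and still below the lowest day-90 fetus. The cyclin *CCNB2* (fitted change -3.91 ± 0.32) and the spindle pole protein *ASPM* (fitted change -3.56 ± 0.30) were well above background on all 8 day-90 arrays, but on only 1 and 2 of the 5 day-110 arrays. *KIF11*, a motor that separates the spindle poles, was the only member not called (0.33) and is named here because of that. Of 12 measured genes of DNA replication, 10 were called lower and none higher, with a median of -0.98. The helicase subunits *MCM2* and *MCM3* changed by -3.07 ± 0.23 and -3.37 ± 0.35, the replication factor *GINS2* by -2.01 ± 0.16, and *DUT*, which keeps uracil out of DNA, by -0.72 ± 0.09. *MCM3* measured 4.18, 4.05, 6.59, 4.75 and 4.40 at day 110, so that 4 fetuses lay within 1 unit of each other and replicate 3 lay more than 1 unit above them.

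**Figure D2:**
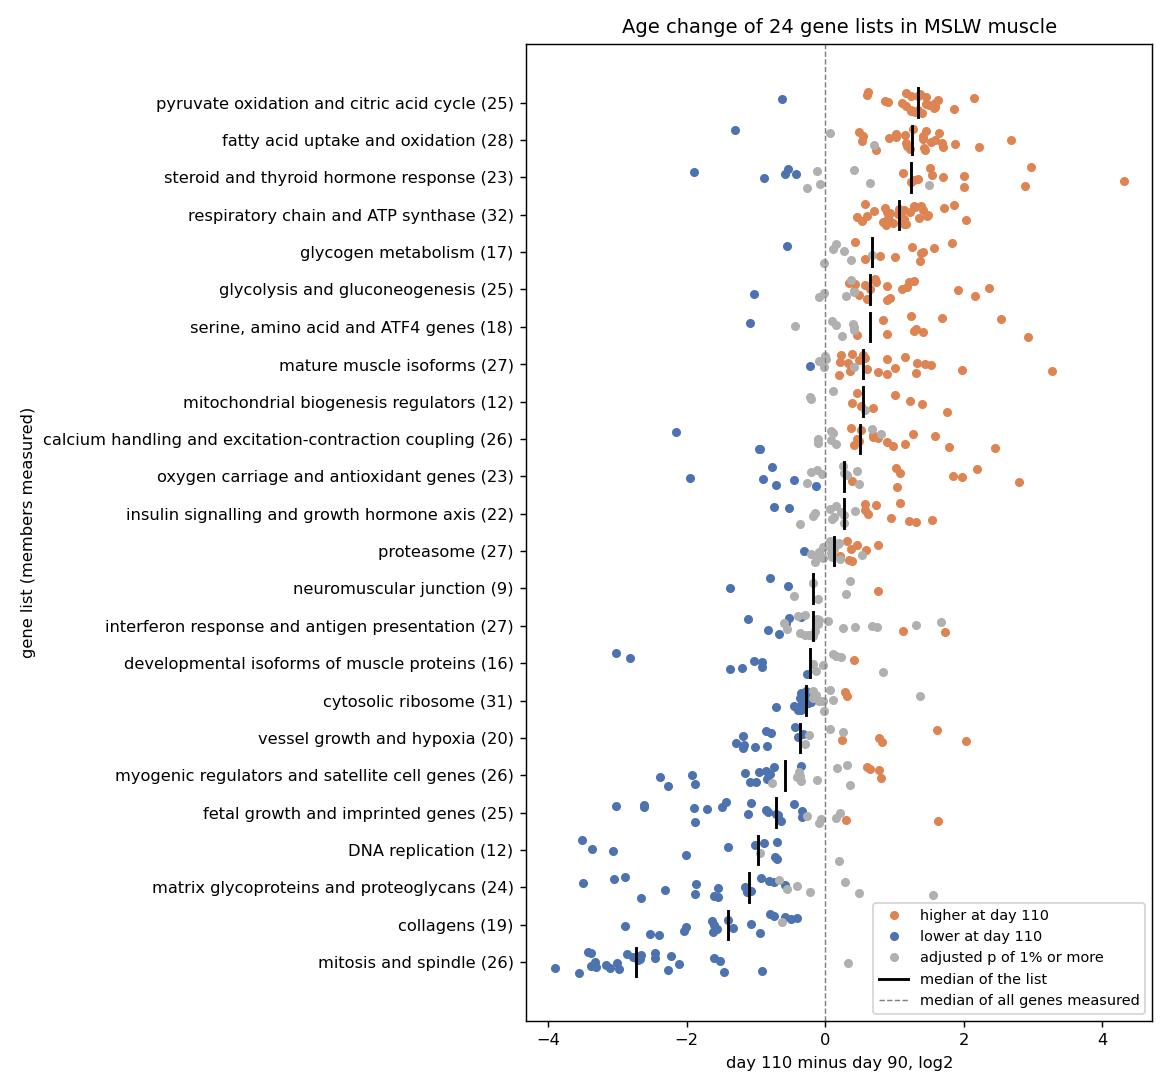
Change from day 90 to day 110 on the log2 scale for the measured members of 24 gene lists (1 point per gene, main probe). Orange points were called higher, blue points lower and grey points were not called. Black bars are list medians, from 1.33 for pyruvate oxidation and the citric acid cycle to -2.74 for mitosis, and the dashed line is the median of all 10494 genes (-0.003).

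Genes of the extracellular matrix were lower at day 110. Of 19 collagen genes, 18 were called lower and none higher, with a median of -1.41. *COL21A1*, a fibril-associated collagen, measured 14.50 to 14.89 (median 14.67) at day 90 and 11.40, 11.72, 12.48, 11.54 and 11.82 at day 110 (change -2.89 ± 0.14). *COL12A1*, another fibril-associated chain, changed by -2.53 ± 0.14, *COL11A1*, a minor fibrillar chain known from cartilage, by -2.39 ± 0.25, and *COL16A1* by -2.04 ± 0.13. *COL5A2*, which the study's text discusses, measured 13.02 to 13.59 (median 13.20) at day 90 and fell to 11.79, 11.79, 12.16, 11.90 and 11.59 at day 110 (change -1.41 ± 0.12). Of 24 matrix glycoproteins and proteoglycans, 17 were called lower and none higher (median -1.10). *VCAN*, the large proteoglycan versican, measured 12.18 to 12.66 (median 12.35) at day 90 and fell to 9.22, 9.34, 10.15, 9.37 and 9.25 at day 110, with a change of -2.90 ± 0.13. *TNC*, the adhesion-modulating protein tenascin C, changed by -3.05 ± 0.21, and *ASPN*, a small leucine-rich proteoglycan, by -2.66 ± 0.17. The elastin gene *ELN*, chosen after its value was seen, had a change of 1.56 that was not called. Some of the collagens and proteoglycans counted here are also among the fibroblast markers above, all of which were lower, and the part of those cells in the falls was not tested.

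Of 26 measured regulators of muscle formation, 13 were called lower, 4 were called higher and 9 were not called (median -0.58). The growth inhibitor myostatin, *MSTN*, measured 10.07 to 10.64 (median 10.38) at day 90 and 7.75, 8.20, 7.93, 8.17 and 7.79 at day 110 (change -2.38 ± 0.20). *MYMK*, the membrane protein that fuses myoblasts, measured 8.91 to 9.97 (median 9.26) at day 90 and 6.95, 7.72, 7.88, 7.38 and 7.11 at day 110 (change -1.93 ± 0.24). *HES6*, a transcription factor that favours differentiation, changed by -1.88 ± 0.16. These 3 genes did not overlap between the ages. The Notch-related ligand *DLK1*, which is imprinted in mammals, measured 13.20 to 14.36 (median 13.79) at day 90 and 10.82, 12.18, 11.87, 11.23 and 11.42 at day 110 (change -2.26 ± 0.26), and its 5 other probes changed by -2.58 to -1.50. *MEF2D*, a partner of the myogenic factors, was the largest change in the other direction (0.81 ± 0.25). It was well above background on 6 of 8 day-90 arrays and its ages overlapped, and the call was lost without day-110 replicate 1, 2 or 4 (0.81, 0.77 and 0.68). Values of *MEF2D* at day 110 were 5.61, 5.78, 5.41, 6.14 and 5.21.

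Among 25 measured genes of fetal growth and imprinting, 18 were called lower and 2 higher (median -0.71). The retrotransposon-derived gene *PEG10*, expressed from the paternal allele, measured 15.95 to 16.80 (median 16.37) at day 90 and 13.86, 13.59, 14.22, 13.28 and 13.82 at day 110 (change -2.62 ± 0.24). *MEST*, also paternally expressed, measured 12.11 to 12.56 (median 12.26) at day 90 and 9.35, 9.65, 10.37, 9.63 and 9.38 at day 110 (change -2.61 ± 0.13). The long non-coding RNA *MEG3*, expressed from the maternal allele, changed by -1.89 ± 0.19, *MAGEL2* by -1.71 ± 0.14 and *NNAT* by -3.02 ± 0.38, although 1 of the 2 other *NNAT* probes did not fall (0.37). *GRB10*, an adaptor that restrains insulin and IGF signalling, was higher, with 12.89 to 13.44 (median 13.05) at day 90 and 14.79, 14.79, 14.15, 15.14 and 14.89 at day 110 (change 1.63 ± 0.16). The main probe of the fetal growth factor *IGF2* was close to the top of the scale and changed little (-0.34 ± 0.06), while its 8 other probes changed by -1.20 to -0.97. Under 75th-percentile scaling the main *IGF2* probe changed sign (0.17).

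Developmental forms of muscle proteins fell more often than they rose, and mature forms mostly rose. Of 16 genes listed as developmental isoforms, 8 were called lower and 1 higher (median -0.22), and of 27 mature isoforms, 21 were called higher and 1 lower (median 0.55). The embryonic myosin heavy chain gene *MYH3* measured 17.41 to 17.87 (median 17.76) at day 90 and 15.33, 14.51, 15.89, 14.16 and 14.56 at day 110 (change -2.82 ± 0.24). *TNNT2*, the cardiac troponin T that immature skeletal muscle also makes, measured 12.35 to 13.20 (median 12.75) at day 90 and 9.48, 9.76, 10.32, 9.91 and 9.35 at day 110 (change -3.03 ± 0.21). Neither gene overlapped between the ages. *ACTC1*, the cardiac actin of fetal skeletal muscle, changed by only -0.27 ± 0.08. Of its 2 other probes 1 was called higher and 1 lower, and its main probe changed sign under 75th-percentile scaling (0.26), and its call was lost without day-110 replicate 1 or 5 (-0.24 in both cases). The slow troponins *TNNI1* (0.11 ± 0.16) and *TNNC1* (0.16 ± 0.14), set among the developmental forms here, were not called. *LDHB* was the 1 developmental form called higher (0.42 ± 0.10).

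The adult heavy chains were all called higher on their main probes. *MYH1* (fast type 2X) measured 16.01 to 16.57 (median 16.29) at day 90 and 17.82, 17.76, 17.60, 17.76 and 17.76 at day 110, a change of 1.45 ± 0.15. *MYH4* (fast type 2B) measured 14.20 to 15.37 (median 15.03) and 15.92, 16.49, 16.30, 16.10 and 16.51, a change of 1.32 ± 0.22 on its main probe. *MYH2* (fast type 2A, 0.33 ± 0.07) and the slow chain *MYH7* (0.21 ± 0.06) were also higher. Heavy chain genes are alike in sequence, and probes named for one of them did not all move together. Of the 8 *MYH1* probes 5 were called higher and none lower, with changes from -1.27 to 2.07, and of the 9 *MYH4* probes 3 were called higher and 2 lower, from -1.66 to 1.58. All 6 *MYH2* probes (changes from 0.33 to 2.99) and all 9 *MYH7* probes (0.21 to 1.13) were called higher. For both genes the main probe gave the smallest change of all probes. The windows of 30 bases below, out of 60-base probes, show the main probe of each heavy chain and the *MYH4* probe with the largest fall, written 5′ to 3′ as the scanner files give them. Capitals mark the longest run that the probe shares with a measured probe named for another heavy chain gene. Probes were compared with probes and not with whole transcripts, so a short run does not show that a probe is specific to its gene.

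*MYH1* (main probe): aaggtgaaatCTTACAAGAGcaagctgagg
*MYH2* (main probe): aggaggctGAGGAACAATCCAAtacaaact
*MYH3* (main probe): ttcatggttcctGACCCTTcatttccatgt
*MYH4* (main probe): agtaattcatctAAATGCACAAAAgtgacc
*MYH7* (main probe): gagggcgcaacaAAGCTCCcagtcctggag
*MYH4* (probe with the largest fall): atcgatcagatGAAGAGGAaccacattaga

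The longest shared run was 14 bases for *MYH2* (with a *MYH4* probe), 12 for the main *MYH4* probe (with *MYH1*), 10 for *MYH1* (with *MYH4*), 8 for the falling *MYH4* probe (with *MYH7*) and 7 each for *MYH3* (with *MYH7*) and *MYH7* (with *MYH2*). The falling *MYH4* probe measured 15.04 to 15.69 at day 90 (median 15.37) and 14.11, 13.91, 13.30, 13.37 and 13.80 at day 110. Its ages did not overlap, as those of the rising main probe did not, so the direction of *MYH4* rests on which probe is read.

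**Figure D3:**
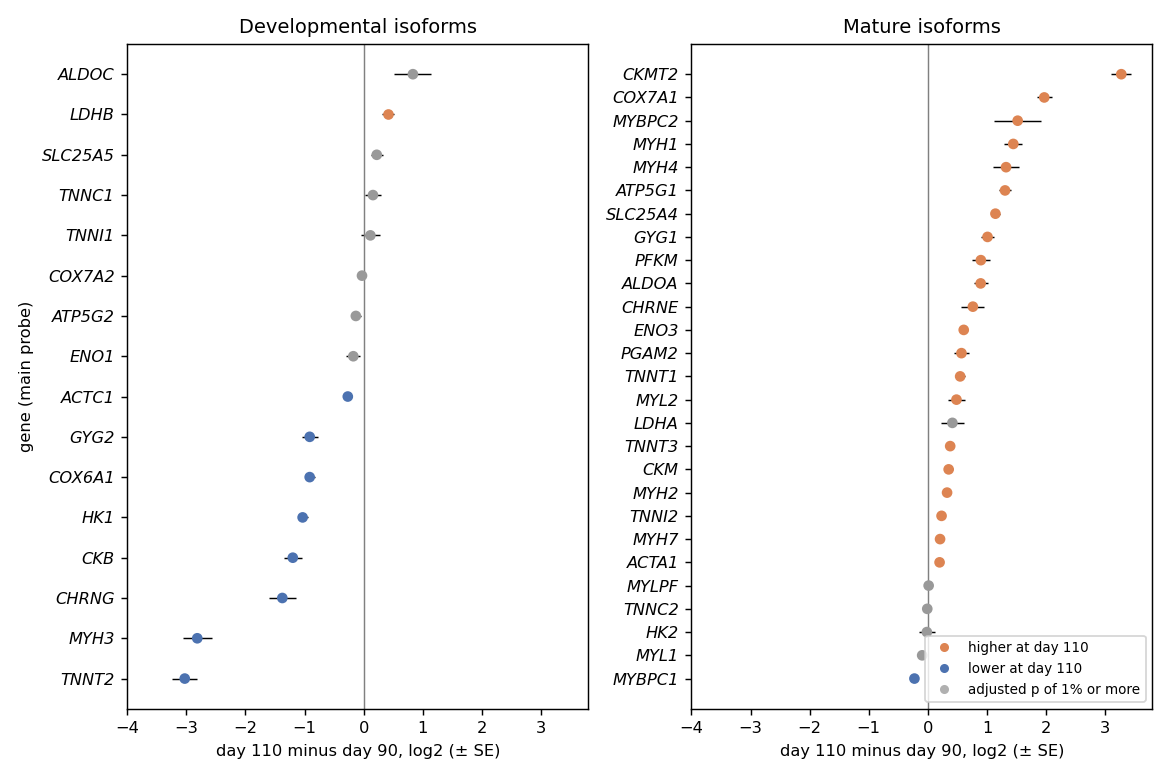
Change from day 90 to day 110 on the log2 scale (± SE) of 16 developmental and 27 mature isoforms of muscle proteins, main probes. Orange points were called higher, blue points lower and grey points were not called. *TNNT2* (-3.03) and *MYH3* (-2.82) lie farthest to the left and *CKMT2* (3.27) farthest to the right, while *TNNI1*, *TNNC1* and *MYLPF* lie near 0.

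Other pairs of isoforms also differed in their changes. The mitochondrial subunit *COX7A1* of heart and muscle measured 14.76 to 15.45 (median 15.26) at day 90 and rose to 17.45, 17.13, 16.94, 17.23 and 17.08 at day 110 (change 1.97 ± 0.13), while the ubiquitous *COX7A2* did not pass the test (-0.03 ± 0.07). The ATP synthase subunit gene *ATP5G1* (1.31 ± 0.09) and the adenine nucleotide carrier *SLC25A4* (1.14 ± 0.08) were higher, and their counterparts *ATP5G2* (-0.13 ± 0.08) and *SLC25A5* (0.22 ± 0.10) were not called. Muscle creatine kinase, *CKM*, rose by 0.35 ± 0.07 and the brain form *CKB* changed by -1.20 ± 0.16. Muscle glycogenin, *GYG1*, rose by 1.01 ± 0.11 and *GYG2* changed by -0.91 ± 0.13. Hexokinase *HK1* was lower (-1.03 ± 0.08) without a call for *HK2* (-0.02 ± 0.13). The fetal subunit of the acetylcholine receptor, *CHRNG*, measured 6.22 to 7.57 (median 6.88) at day 90 and fell to 5.62, 5.86, 5.52, 5.29 and 5.34 at day 110 (change -1.38 ± 0.23), and the adult subunit *CHRNE* rose by 0.76 ± 0.19, with overlap between the ages. Among sarcomere genes, *TNNT1* (0.55 ± 0.08), *MYL2* (0.48 ± 0.14), *TNNI2* (0.23 ± 0.06) and *ACTA1* (0.20 ± 0.05) rose by small amounts, *MYLPF* (0.01 ± 0.05), *TNNC2* (-0.01 ± 0.05) and *MYL1* (-0.10 ± 0.05) were not called, and *MYBPC1* was lower (-0.23 ± 0.06). *MYBPC1*, *MYL1* and *TNNC2* turned positive under 75th-percentile scaling (0.33, 0.45 and 0.44). The call for *TNNI2* was lost without day-110 replicate 1 or 4 (0.21 in both cases) and that for *MYBPC1* without replicate 3 (-0.19). *TNNT3* rose on its main probe (0.38 ± 0.06) while 2 of its 4 other probes were called lower, with a lowest change of -1.86. *MYBPC2*, the fast form of myosin-binding protein C, rose by 1.52 ± 0.39 with values of 10.47, 9.74, 8.63, 10.29 and 9.36 at day 110.

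Genes of excitation and calcium handling rose more often than they fell, with 15 of 26 called higher and 3 lower (median 0.50). *ATP1B1*, the beta subunit of the sodium pump, measured 12.20 to 13.33 (median 13.09) at day 90 and 14.75, 14.94, 14.44, 14.84 and 14.81 at day 110 (change 1.78 ± 0.13). The potassium channel *KCNC4* rose by 1.58 ± 0.17. *RYR3*, the calcium release channel typical of immature muscle, measured 7.40 to 8.03 (median 7.77) at day 90 and fell to 5.27, 5.80, 6.38, 5.56 and 4.79 at day 110 (change -2.16 ± 0.18), although its other probe changed by 0.65. Of 9 genes of the neuromuscular junction 1 was called higher and 3 lower (median -0.17), against background shares of 21.9% and 27.8%. Beside *CHRNG*, these were *UTRN* (-0.80 ± 0.08), a relative of dystrophin at the synapse, and the neuregulin receptor *ERBB3* (-0.55 ± 0.10).

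Glycogen and glucose metabolism was mostly higher at day 110. Of 17 glycogen genes 10 were called higher and 1 lower (median 0.68). Muscle glycogen phosphorylase, *PYGM*, measured 12.39 to 12.98 (median 12.54) at day 90 and 14.64, 14.37, 14.00, 14.73 and 14.57 at day 110 (change 1.82 ± 0.15). The phosphorylase kinase subunits *PHKB* (1.41 ± 0.11) and *PHKA1* (1.37 ± 0.12) and *PPP1R3B* (1.56 ± 0.19), which brings a phosphatase to glycogen, rose as well, while the related *PPP1R3D* was lower (-0.55 ± 0.14, and -0.43 and not called without both arrays that stood apart). Of 25 genes of glycolysis and gluconeogenesis 19 were called higher and 1, *HK1*, lower (median 0.65). *PFKFB1*, which sets the level of a regulator of glycolysis, measured 7.89 to 8.62 (median 8.19) at day 90 and rose to 10.76, 10.50, 10.02, 10.96 and 10.74 at day 110 (change 2.36 ± 0.20). The transaminase *GOT1* rose by 2.16 ± 0.14 and the malate dehydrogenase *MDH1* by 1.91 ± 0.10, both of them parts of the malate-aspartate shuttle. The insulin-responsive glucose transporter *SLC2A4* measured 12.67 to 13.70 (median 13.37) at day 90 and rose to 14.67, 14.59, 14.50, 14.61 and 14.59 at day 110 (change 1.29 ± 0.16). *PGK1* (0.43 ± 0.11), *GPI* (0.49 ± 0.09) and the muscle fructose bisphosphatase *FBP2* (0.94 ± 0.24) were also higher, and *LDHA* (0.42 ± 0.19) and *GPD1* (0.30 ± 0.17) were not called. *PCK2*, the mitochondrial enzyme of gluconeogenesis, rose by 1.10 ± 0.32, but its day-110 values of 9.40, 8.86, 10.05, 9.25 and 8.00 reached from inside to well above the day-90 range of 7.75 to 8.43 (median 7.99). Without day-110 replicate 1 or replicate 3 the change in *PCK2* was no longer called (1.03 and 0.87).

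Genes of mitochondrial energy metabolism rose throughout the lists examined, with few exceptions. All 32 measured genes of the respiratory chain and ATP synthase were called higher, by 0.46 to 2.03 (median 1.06). *CYCS*, cytochrome c, measured 13.91 to 14.48 (median 14.25) at day 90 and 15.92, 15.65, 15.29, 15.99 and 15.56 at day 110 (change 1.49 ± 0.13). *NDUFV1*, a core subunit of complex I, rose by 1.71 ± 0.14 and *UQCRFS1*, the iron-sulfur subunit of complex III, by 1.86 ± 0.17. *COX10*, a haem-modifying enzyme of complex IV assembly, had the largest fitted rise (2.03 ± 0.33), but its lowest day-90 value of 2.23 came from the array of replicate 2, with a day-90 median of 6.34. Of 25 genes of pyruvate oxidation and the citric acid cycle 24 were called higher and 1 lower (median 1.33). The citric acid cycle enzyme *IDH2* measured 14.83 to 15.55 (median 15.10) at day 90 and rose to 16.98, 16.99, 16.76, 17.13 and 16.93 at day 110 (change 1.86 ± 0.11), *IDH3B* rose by 1.59 ± 0.11, and the pyruvate dehydrogenase genes *PDHA1* and *DLD* rose by 1.59 ± 0.19 and 1.34 ± 0.10. The kinases that switch this complex off did not move together. *PDK4* measured 11.44 to 13.09 (median 12.20) at day 90 and rose to 15.35, 14.90, 14.19, 13.53 and 14.08 at day 110 (change 2.15 ± 0.41), *PDK2* rose by 1.62 ± 0.17 and *PDK3* was lower (-0.63 ± 0.10).

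Of 28 genes of fatty acid uptake and oxidation, 25 were called higher and 1 lower (median 1.25). *ECI1*, which prepares unsaturated fatty acids for oxidation, measured 9.82 to 10.30 (median 10.13) at day 90 and 13.17, 12.93, 11.93, 13.13 and 12.68 at day 110 (change 2.68 ± 0.18). *ACADVL*, the first dehydrogenase for long chains, measured 11.53 to 11.88 (median 11.70) at day 90 and 14.02, 13.97, 13.50, 13.98 and 14.16 at day 110 (change 2.22 ± 0.14). *CPT1B*, the muscle enzyme that admits fatty acids to mitochondria, rose by 1.88 ± 0.14 and the thiolase *ACAT1* by 1.70 ± 0.09. All of the fetuses at day 110 exceeded all of those at day 90 for these genes. The uncoupling protein *UCP2* was the member that fell (-1.30 ± 0.21). Among 12 regulators of mitochondrial biogenesis 8 were called higher and none lower (median 0.54), and 6 were called without the 2 arrays that stood apart. The nuclear receptor *ESRRA* measured 12.07 to 12.75 (median 12.58) at day 90 and rose to 14.27, 14.44, 14.14, 14.35 and 14.34 at day 110 (change 1.75 ± 0.09). Its coactivator *PPARGC1A* rose by 1.01 ± 0.11, with day-110 values within 0.2 of each other (13.19, 13.20, 13.24, 13.05 and 13.18). The fusion protein *MFN2* rose by 1.40 ± 0.19 and the receptor *PPARA* by 1.22 ± 0.29.

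Genes of the steroid and thyroid hormone response moved in both directions, with 12 of 23 called higher and 5 lower (median 1.24). Beside *FKBP5*, the glucocorticoid-responsive transcription factors *ZBTB16* and *KLF9* rose. *ZBTB16* measured 8.52 to 9.94 (median 9.07) at day 90 and 12.37, 12.62, 11.71, 12.13 and 11.81 at day 110 (change 2.97 ± 0.25). *KLF9* measured 10.86 to 12.08 (median 11.71) at day 90 and 13.57, 13.68, 13.51, 13.47 and 13.61 at day 110 (change 2.0 ± 0.24). *CEBPD* was well above background on 2 of 8 day-90 arrays and on all 5 day-110 arrays (fitted change 2.88 ± 0.39). The retinoid receptor *RXRG* was the largest fall of this list, with 7.55 to 8.80 (median 8.17) at day 90 and 6.51, 6.62, 5.49, 6.55 and 6.27 at day 110 (change -1.89 ± 0.25). In insulin signalling and the growth hormone axis 9 of 22 were called higher and 2 lower (median 0.27). The muscle ubiquitin ligases *FBXO32* (1.53 ± 0.42, and 1.34 and not called without day-110 replicate 5) and *TRIM63* (1.08 ± 0.24) rose with overlap between the ages, the mTOR inhibitor *DDIT4* by 1.30 ± 0.26 and the translation inhibitor *EIF4EBP1* by 1.20 ± 0.13, while *SOCS3*, a brake on cytokine signalling, was lower (-0.74 ± 0.18).

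Amino acid genes varied among the day-110 fetuses. Of 18 genes of serine synthesis, amino acid transport and the ATF4 response, 10 were called higher and 1 lower (median 0.64). The mean over the list, relative to day 90, was 1.07, 0.66, 0.90, 1.13 and 0.34 in the day-110 fetuses. *ARG2*, mitochondrial arginase, measured 7.77 to 8.97 (median 8.20) at day 90 and 12.41, 11.13, 11.04, 12.69 and 8.74 at day 110 (change 2.92 ± 0.46). Replicate 5 lay within the day-90 range of *ARG2*, and the other 4 lay at least 2 units above it. The amino acid transporters *SLC38A4* (9.82, 9.46, 10.22, 10.39 and 9.79, change 2.54 ± 0.25) and *SLC3A2* (10.12, 9.75, 10.80, 11.10 and 9.74, change 1.69 ± 0.25) rose without overlap, and *SLC1A5* was lower (-1.09 ± 0.11). *CHAC1*, a glutathione-degrading enzyme, was above background on 1 of 8 day-90 and 4 of 5 day-110 arrays (fitted change 1.40 ± 0.38, and 1.03 and not called without day-110 replicate 1).

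Among 23 genes of oxygen carriage and antioxidant defence 8 were called higher and 6 lower (median 0.27), and 10 were called higher without the 2 arrays that stood apart. Mitochondrial superoxide dismutase, *SOD2*, measured 11.28 to 11.86 (median 11.59) at day 90 and rose to 13.78, 13.64, 13.49, 13.90 and 13.90 at day 110 (change 2.19 ± 0.15), and the secreted peroxidase *GPX3* rose by 2.80 ± 0.31. The haem oxygenases went opposite ways. *HMOX1*, the inducible form, measured 11.81 to 12.14 (median 12.03) at day 90 and fell to 9.92, 10.43, 10.65, 9.39 and 9.91 at day 110 (change -1.95 ± 0.18), and the constitutive *HMOX2* measured 6.77 to 8.82 (median 8.53) at day 90 and rose to 10.91, 10.33, 9.43, 10.37 and 10.50 at day 110 (change 1.97 ± 0.20). For *GPX3* and *HMOX2* the lowest day-90 value was that of replicate 2.

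Of 20 genes of vessel growth and hypoxia 5 were called higher and 11 lower (median -0.36). The vessel growth factor *VEGFA* measured 9.47 to 9.99 (median 9.62) at day 90 and rose to 11.08, 11.22, 11.20, 11.55 and 11.26 at day 110 (change 1.61 ± 0.11), whereas its receptor *KDR* measured 10.32 to 11.33 (median 10.57) at day 90 and fell to 9.16, 9.10, 9.64, 9.78 and 9.59 at day 110 (change -1.19 ± 0.19). *EGLN3*, an oxygen-sensing hydroxylase, rose by 2.03 ± 0.17 and the chemokine receptor *CXCR4* changed by -1.29 ± 0.12. *KDR* and *CXCR4* are expressed by endothelial cells, of whose 5 measured markers 4 were lower, and the part of those cells was not tested. In the interferon and antigen presentation list 2 of 27 were called higher and 6 lower (median -0.18). *IFIT1* measured 6.46 to 7.44 (median 6.75) at day 90 and rose to 7.99, 9.35, 8.06, 9.22 and 8.19 at day 110 (change 1.73 ± 0.33) and *IFIT2* rose by 1.13 ± 0.16, while the transcription factor *IRF1* (-0.83 ± 0.12) and the class II gene *SLA-DQA1* (-1.12 ± 0.13) were lower. The counts of this list, in both directions, lay under the background shares.

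Housekeeping complexes moved little. Of 31 cytosolic ribosomal protein genes 20 were called lower and 2 higher, with a median of -0.28 and the largest called fall in *RPL3* (-0.72 ± 0.10). Under 75th-percentile scaling none of the 31 was lower, 10 were higher and the median was 0.22, so that the direction of this list depends on the normalization, and within slide pairs 1 of the 31 was lower. Of 27 proteasome genes 8 were called higher and 1 lower (median 0.12), with *PSMD12* (0.76 ± 0.08) the largest, and 20 were higher under that scaling but 1 within slide pairs. Among 29 genes that the study's text discusses, 12 were called higher and 11 lower (median 0.30). The study picked these on the same fetuses, so they are no independent evidence of direction. Those not described above include the cell cycle kinase *CDK6* (-1.34 ± 0.09), the interleukin receptor-like gene *IL1RAPL2* (-1.36 ± 0.15) and *SPG7*, a mitochondrial protease (1.00 ± 0.14), which were called (1 of them higher and the others lower), and *CREM* (-0.30 ± 0.12), *FRZB* (-0.26 ± 0.19), *RASGRP3* (-0.31 ± 0.15) and *SORD* (0.38 ± 0.17), which were not. Without day-90 replicate 2 the change in *SORD* was called (0.53).

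The age change in MSLW was then set against that of the other genotypes. Across the 42436 probes, which are not independent replicates, it correlated at r = 0.926 with the change in LWMS, 0.920 in LW and 0.926 in MS, each from its own fetuses. The median absolute change was 0.41 in MSLW, 0.41 in LWMS, 0.35 in LW and 0.50 in MS. Of the 16721 probes called in both crosses, 16718 changed in the same direction. Tested as a difference of changes in limma, MSLW differed from LWMS in 14 probes (0.033%), with 4 more positive in MSLW (0.00943%) and 10 more negative (0.0236%). It differed from LW in 48 (0.113%), with 13 more positive (0.0306%) and 35 more negative (0.0825%), and from MS in 37 (0.0872%), with 25 more positive (0.0589%) and 12 more negative (0.0283%). The split against MS turned over with other signals, to 16 more positive and 27 more negative with median spot signals or the deposited log2 values and to 25 and 45 with normexp background correction. The 3 comparisons share the MSLW arrays, and in simulated data a difference of 1 was recovered for 56% to 60% of probes, so that smaller differences could be missed. *MYL7* fell by 4.26 in MSLW, and its changes were -1.90 in LWMS, -2.85 in LW and -2.58 in MS. The difference from LWMS was -2.36 (SE 0.57, limma adjusted p = 0.0626) and was not called.

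*PLAGL1*, a zinc-finger transcription factor that is imprinted and expressed from the paternal allele in mammals, fell in MSLW, while its changes in LWMS and LW were close to 0. At day 90 MSLW fetuses measured 11.95 to 12.58 (median 12.31), and at day 110 11.31, 11.28, 11.27, 11.11 and 11.09 (change -1.07 ± 0.11). At day 110 the LW fetuses measured 11.94 to 12.46, the LWMS fetuses 11.60 to 12.34 and the MS fetuses 10.87 to 11.48. The changes in LWMS, LW and MS were -0.02, -0.06 and -1.02. The difference of MSLW from LWMS was -1.05 (SE 0.15, limma adjusted p = 8.69e-05), that from LW -1.01 (SE 0.15, adjusted p = 0.0001), and that from MS was -0.05 and not called. The other *PLAGL1* probe differed by -1.19 from LWMS and by -1.18 from LW, both called. Both probes are shown by their first 30 bases of 60 because their sequences differ and both were called.

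*PLAGL1* (main probe): ccagtaagggaactatggaaaggtttggat
*PLAGL1* (other probe): attttgcaataccaatttgcttgaggactt

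*TCEAL1* and *PLP2*, which lie on the X chromosome in mammals, also differed between MSLW and LWMS, as did the small nuclear RNA gene *RNU1-5*. The 14 probes that differed were 3 of *PLP2*, 2 of *PLAGL1*, 1 each of *TCEAL1*, *RNU1-5*, *ANGPTL1* and *GBP1*, and 5 with no gene name. *TCEAL1* measured 8.92 to 9.32 (median 9.22) at day 90 and 9.37, 9.50, 9.56, 9.49 and 9.65 at day 110 in MSLW (change 0.33 ± 0.08), and every day-110 MSLW fetus lay above every MSLW fetus of day 90. In LWMS it changed by -0.52, a difference of 0.85 (SE 0.11, limma adjusted p = 5e-06), and it changed by -0.07 in LW and -0.29 in MS. The difference from MS (0.62) was called as well. *PLP2*, a membrane protein, was not called in MSLW (-0.19 ± 0.08) and changed by 0.53 in LWMS, -0.05 in LW and 0.44 in MS. The differences from LWMS (-0.71) and from MS (-0.63) were called. At day 110 its MSLW values of 13.89 to 14.27 lay below the 14.64 to 15.18 of LWMS and the 14.74 to 14.94 of MS. *RNU1-5* had changes of 0.45 in MSLW and -0.90 in LWMS (difference 1.35), and this call was lost without day-110 replicate 1, 2 or 5 (1.22, 1.34 and 1.32) or day-90 replicate 2 (1.35). Without day-110 replicate 3 the difference of *PLP2* from MS was -0.57 and no longer called.

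Compared with LW, the purebred with the same sow breed, 3 genes of amino acid metabolism changed more positively in MSLW. *ARG2* changed by -1.44 in LW, so that the difference was 4.36 (SE 0.60, limma adjusted p = 3.22e-05). At day 110 *ARG2* measured 5.51 to 8.72 in LW and 8.74 to 12.69 in MSLW. The serine synthesis gene *PHGDH* measured 12.82, 12.53, 13.61, 13.19 and 11.33 in the day-110 MSLW fetuses and 9.43 to 11.47 in those of LW, with changes of 0.42 and -1.93 (difference 2.35). Asparagine synthetase, *ASNS*, changed by 0.25 and -1.73 (difference 1.98), although replicate 5 (6.17) was below the day-90 range. In LWMS and MS, *ARG2* changed by 3.54 and 3.93, *PHGDH* by -0.45 and 0.65, and *ASNS* by -0.35 and 0.85. The keratin *KRT19* (difference 2.82), the chemokine *CXCL12* (0.99), the inositol phosphatase *INPP5B* (0.97) and the carbonyl reductase *CBR1* (0.86) made up the 7 genes with a positive difference on their main probe. The last pair, and the genes below that were well above background on fewer arrays, were named after their values were seen. Probes other than the main one of *PHGR1* (1.51) and *VTI1B* (3.87, well above background on 3 of 8 MSLW arrays of day 90) also passed the test, as did one of *FGG* that was well above background on no MSLW array of day 90. *ENPEP*, an aminopeptidase that cuts angiotensin, rose by 0.66 in MSLW and by 2.25 in LW (difference -1.58), from 9.81 to 10.82 in MSLW and 8.01 to 9.08 in LW at day 90. *PEG10* fell further in MSLW than in LW (difference -1.54), *GPSM1* changed by -0.82 in MSLW and by 0.03 in LW (difference -0.85) and *HIGD1B* rose less (-1.11). In LWMS and MS, *ENPEP* changed by 0.31 and 0.0023, *PEG10* by -2.31 and -3.43, *GPSM1* by -0.63 and -1.16, and *HIGD1B* by 1.32 and 1.28. None of the genes named so far in this comparison was called against LWMS or MS on its main probe. Their differences from LW are therefore not shown to be particular to MSLW. Chosen after their values were seen, 5 *IGF2* probes other than the main one also fell further in MSLW than in LW, with differences from -0.90 to -0.73, as did 3 other probes of *DLK1* (-1.64 to -1.17). Of the 12 genes with a negative difference on their main probe, *ZP2* (-2.22) and *C19ORF69* (-2.21) had larger ones than *ENPEP*, but were well above background on 1 and 3 of the 5 day-110 MSLW arrays. The differences of *ARG2*, *PHGDH* and *ENPEP* kept their calls when any 1 MSLW fetus of day 110 was left out. That of *ASNS* lost its call without day-110 replicate 1, 2, 3 or 4 (1.82, 2.06, 1.86 and 1.84) and that of *KRT19* without any 1 of the 5 (2.73 to 2.94). *PEG10* lost it without day-110 replicate 1, 2, 4 or 5 or day-90 replicate 2 (-1.57 to -1.42), *GPSM1* without day-110 replicate 1, 2 or 4 or day-90 replicate 2 (-0.84 to -0.77), *HIGD1B* without day-110 replicate 1, 2 or 3 (-1.13, -1.11 and -0.97) and *CXCL12* without day-110 replicate 4 (0.90). *INPP5B* also lost it without day-110 replicate 4, *CBR1* without day-110 replicate 1, 4 or 5, *C19ORF69* without day-110 replicate 1, 2 or 4, and *ZP2* without any of these 3 or day-90 replicate 2, with differences of 0.84 for *INPP5B*, 0.80 to 0.86 for *CBR1*, -2.13 to -1.99 for *C19ORF69* and -2.08 to -2.0 for *ZP2*.

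Compared with MS, the purebred with the same boar breed, the guanylate-binding protein genes *GBP1* and *GBP3*, which are induced by interferon, fell less in MSLW. *GBP1* measured 6.69 to 7.43 (median 7.16) at day 90 and 5.93, 6.87, 7.08, 6.34 and 6.03 at day 110 in MSLW, with overlap, and its changes were -0.67 in MSLW and -2.16 in MS (difference 1.49, SE 0.29, limma adjusted p = 0.00468). At day 90 MS fetuses measured 7.74 to 8.36 for *GBP1*, above all MSLW fetuses. The 2 other *GBP1* probes had changes of 0.42 and 0.97 in MSLW that were not called, and the call on the main probe was lost without day-110 replicate 1, 4 or 5 (-0.54, -0.64 and -0.56). The probe with 0.97 differed from MS by 3.26 (limma adjusted p = 4.17e-05), but was well above background on 1 of 7 MS arrays of day 110. That difference kept its call when any 1 of the 5 day-110 fetuses or day-90 replicate 2 was left out. *GBP3* differed by 1.39, the glutathione transferase *GSTM3* by 1.29, the zinc-finger gene *ZNF140* by 1.16 and the growth factor *FGF7* by 1.00. *DCAF6* rose less in MSLW than in MS (-0.68), and its day-110 values were 13.39, 13.32, 12.65, 13.43 and 13.23, with replicate 3 the lowest. In LWMS and LW, *GBP1* changed by -1.63 and -0.51, *GBP3* by -1.41 and -0.46, and *GSTM3* by -1.02 and -0.23. *FGF7* changed there by -1.28 and -0.55, *ZNF140* by -0.39 and 0.06, and *DCAF6* by 0.88 and 0.49. None of the 6 was called against LWMS or LW on its main probe. The *GBP1* probe with 0.97 was called against LWMS (difference 2.65), but was well above background on none of the LWMS arrays of day 110. That call was lost without day-110 replicate 1 or 4. Each of the 6 calls against MS was lost when some single fetuses were left out, with the sign of the difference kept. Without day-110 replicate 3 the calls were lost for *GBP1* (1.33), *GBP3* (1.34), *FGF7* (0.95), *ZNF140* (1.00) and *DCAF6* (-0.55). They were also lost without day-110 replicate 2 for *GBP1* (1.39), *GBP3* (1.30) and *GSTM3* (1.18), without day-110 replicate 5 for *GSTM3* (1.18), without day-110 replicate 4 for *ZNF140* (1.08), and without day-90 replicate 2 for *GBP1* (1.43) and *ZNF140* (1.12). The largest difference from MS on a main probe was that of another glutathione transferase, *GSTM1*, which was named after its value was seen. It changed by -1.43 in LWMS, 0.22 in LW, 0.07 in MSLW and -3.40 in MS (difference of MSLW from MS 3.47, SE 0.51, limma adjusted p = 5.36e-05). Its other probe gave 3.53, and the call was kept when any 1 of the 5 day-110 fetuses or day-90 replicate 2 was left out (3.17 to 3.81). *GSTM1* was well above background on all MSLW arrays but on 4 of 7 MS arrays of day 110, and genes of this family are alike in sequence. *RNF182* was well above background on none of these 7 MS arrays and has only a bound there. The other positive differences from MS on a main probe, all smaller, were those of *LIMA1* (0.81), *PCDH18* (0.74), the matrix protein gene *SPARC* (0.65), *ITPRIP* (0.64) and *TCEAL1*. Without day-110 replicate 3 the calls of *LIMA1* (0.74) and *PCDH18* (0.69) were lost, and that of *PCDH18* also without day-110 replicate 4 or 5 (0.70 and 0.73).

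**Figure D4:**
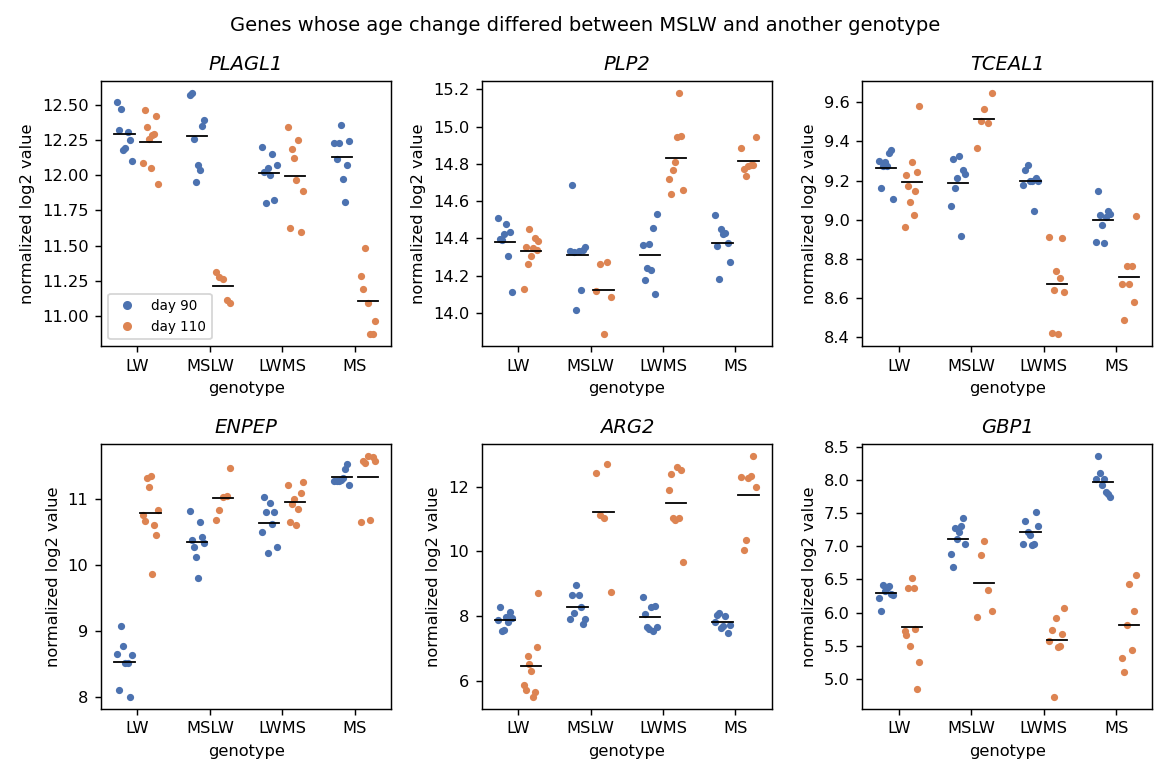
Normalized log2 value of each fetus for 6 genes whose age change differed between MSLW and another genotype, by genotype and age (blue points are day 90, orange points day 110, bars are group means, and the axes do not start at 0). *PLAGL1* is low at day 110 in MSLW and MS, *PLP2* is high at day 110 in LWMS and MS, and the highest group mean of *TCEAL1* is that of MSLW at day 110.

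The position of each fetus between the day-90 and the day-110 pattern was summed up in an age score. From the average of 3111 probes that rose in LWMS it subtracts the average of 4333 that fell there, all by more than 1 on the log2 scale, so that no MSLW fetus took part in choosing them. MSLW fetuses scored between -0.74 and -0.47 at day 90, with a mean of -0.59. The day-90 means were -0.74 in LW and -0.53 in MS. The tests below compare scores at day 110 only, so they include any difference between genotypes already present at day 90. At day 110 the MSLW fetuses scored 2.77, 2.51, 1.48, 2.55 and 2.37, a mean of 2.33 ± 0.50 (SD, n = 5). Replicate 3 was again nearest to day 90. LW fetuses of day 110 scored 2.0 ± 0.30 (SD, n = 9) and MS fetuses 2.96 ± 0.12 (SD, n = 7), and LWMS, on which the probes were chosen, scored 2.72 ± 0.12 (SD, n = 8). MSLW lay 0.63 below MS in an exact two-sided permutation test (p = 0.00253, the smallest that 792 splits allow, adjusted 0.00505), and all 5 MSLW scores were under the lowest MS score of 2.79. The difference of 0.33 from LW was not called (exact two-sided permutation test, p = 0.143, 2002 splits). Without replicate 3 it was 0.55 (exact p = 0.00559), so that 1 fetus decides this comparison. The permutation tests treat fetuses as independent, although some can share a sow that the labels do not name. The LW fetus on the slide of replicate 3 had the lowest LW score of day 110 (1.47), and it was kept. On the 5 slides shared with LW, MSLW minus LW was 0.61, 0.45, 0.0036, 0.40 and -0.012, and on the 4 shared with MS, MSLW minus MS was -0.37, -0.42, -1.51 and -0.42.

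**Figure D5:**
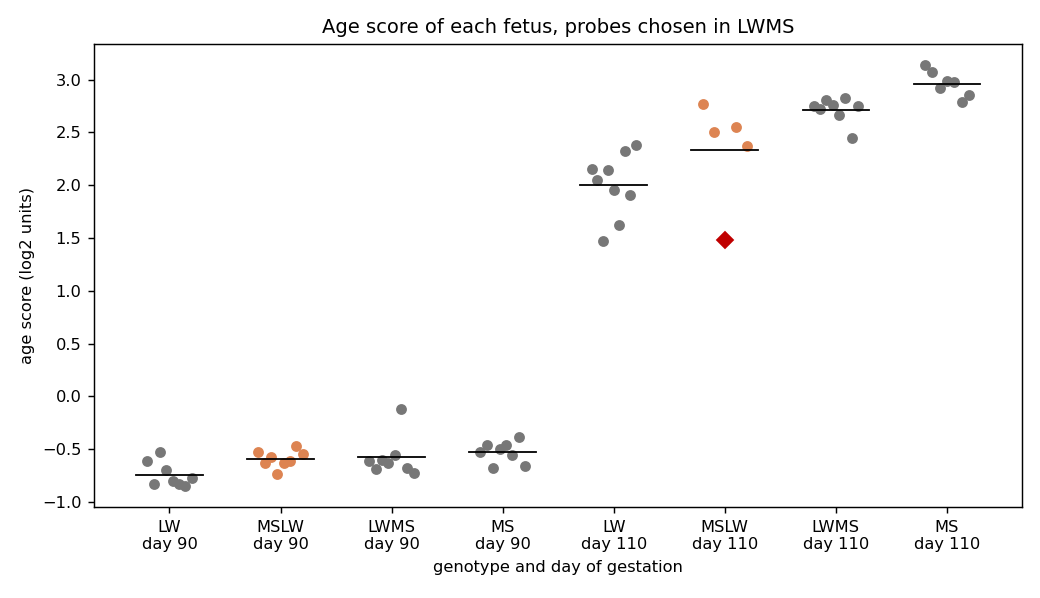
Age score of each of the 61 fetuses in log2 units, by genotype and day of gestation. Points are fetuses, bars are group means, MSLW fetuses are orange and the diamond is day-110 replicate 3. The MSLW fetuses of day 110 lie between 1.48 and 2.77, and all MS fetuses of day 110 lie above them.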

How the data were processed

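Each array carried the Cy3-labelled RNA of 1 fetus. The scanner files deposited by the authors hold spot intensity values that Agilent Feature Extraction 10.10.1.1 corrected for background, and no genome build is involved. A second deposited table holds the authors' normalized log2 values, whose column medians lay between 8.09 and 8.10. It differed from quantile-normalized log2 median signals by a median of 0.0206 and served as an alternative.

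Here log2 of the processed intensity was quantile normalized over 61 arrays. Non-uniform spots were set to missing, spots of 1 probe were averaged, and probes not well above background on 80% or more of any of the 8 groups' arrays were dropped, which left 42436 of 60305. limma 3.58.1 (R 4.3.3) fitted 8 group means with moderated variances and Benjamini-Hochberg adjustment at 1%. Age scores were compared by exact permutation (scipy 1.17.1). In simulated data the MSLW contrast recovered 76% of 200 probes changed by 1, with 2 false calls. Only these 200 probes changed and no sow or slide effects were simulated, so neither value holds for the real contrast. The number of arrays limits the precision. The labels do not name the sow, so the random sow effect of the study's methods was not fitted.

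Named genes were, on their main probe, the 12 largest rises and 12 largest falls among genes well above background on 80% or more of the arrays of both MSLW ages and with the same sign on all 5 slides holding both ages of MSLW, up to 4 members of each gene list with the largest called change and the largest called change against the list's majority, all members of both isoform lists and of the study's text genes, and up to 5 genes in each direction per comparison of genotypes, well above background on 80% or more of the arrays of all 4 groups compared. Some of the genes so chosen are not reported here. Of 640 list genes 569 were measured. The members and lists were chosen with earlier results of these data known. Alternatives covered the signal column, background correction, normalization, filters, slide, moderation, the arrays fitted and single replicates. Leaving out day-90 replicate 2, alone or with day-110 replicate 3, was chosen after seeing the data.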

Additional observations from a re-analysis of the deposited data

Results flagged for a closer look

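In 40 of 364 groups of MSLW values examined, over 178 named genes, principal components and scores, 1 fetus lay farther from its group than Dixon's critical value allows, where chance gives about 1 group in 20. Each value below is followed by that of the next fetus, in log2 units. Day-110 replicate 3 was the lowest of its age for *ACADVL* (13.50, next 13.97), *CA9* (11.61, next 12.64), *DCAF6* (12.65, next 13.23), *EGLN3* (9.88, next 10.83), *GPX3* (11.42, next 12.61), *IDH3B* (14.77, next 15.25), *MYH1* (17.60, next 17.76), *PDK2* (7.25, next 8.08) and *SLC25A4* (17.70, next 17.86). It was the highest for *C1QTNF3* (10.73, next 9.34), *HK1* (12.29, next 11.87), *MCM3* (6.59, next 4.75), *TNC* (6.56, next 5.73) and *VCAN* (10.15, next 9.37). Day-90 replicate 2 was the lowest of its age for *CA9* (7.55, next 8.59), *CKM* (17.68, next 18.13), *COX10* (2.23, next 6.09), *GPX3* (7.14, next 9.60), *HMOX2* (6.77, next 8.38), *PDK2* (5.34, next 6.35) and *UCP2* (10.59, next 11.56). It was the highest of day 90 for *CHRNE* (7.40, next 6.19), *DUT* (13.90, next 13.59), *GOT1* (13.18, next 12.77) and *NDUFV1* (10.14, next 9.61). Day-90 replicate 8 was the lowest for *ATP1B1* (12.20, next 12.86), *ESRRA* (12.07, next 12.56), *HES6* (11.70, next 12.15), *LDHB* (13.90, next 14.76), *MYH2* (16.95, next 17.19), *MYL2* (15.43, next 16.75), *STMN1* (13.93, next 14.25) and *UBE2C* (10.35, next 11.32). Among the remaining fetuses, *AGT* was highest in day-90 replicate 1 (9.56, next 8.43), *C1QTNF3* was lowest in day-90 replicate 3 (12.61, next 13.10), *CHAC1* was lowest in day-90 replicate 7 (2.60, next 3.23), *COL16A1* was highest in day-90 replicate 6 (15.32, next 14.94) and *IFIT2* was highest in day-90 replicate 7 (8.35, next 7.94). On the principal components of the 13 arrays, day-90 replicate 2 scored -85.91 on the first, with the next at -67.18, and -138.71 on the second, with the next at 8.77.

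The age change in MSLW differed from that of another genotype by a limma test of the difference itself (adjusted p under 1%) on the main probes given here, as MSLW minus the other genotype in log2 units. Against LWMS these were *PLAGL1* (-1.05), *PLP2* (-0.71), *RNU1-5* (1.35) and *TCEAL1* (0.85). Against LW these were *ADAT3* (-0.67), *ARG2* (4.36), *ASNS* (1.98), *CBR1* (0.86), *CXCL12* (0.99), *ENPEP* (-1.58), *GPSM1* (-0.85), *GTF3C5* (-0.60), *HIGD1B* (-1.11), *INPP5B* (0.97), *INS-IGF2* (-0.74), *KRT19* (2.82), *MAGED1* (-0.57), *PEG10* (-1.54), *PHGDH* (2.35), *PLAGL1* (-1.01) and *TALDO1* (-0.51). Against MS these were *DCAF6* (-0.68), *FGF7* (1.00), *GBP1* (1.49), *GBP3* (1.39), *GSTM3* (1.29), *ITPRIP* (0.64), *LIMA1* (0.81), *PCDH18* (0.74), *PLP2* (-0.63), *SPARC* (0.65), *TCEAL1* (0.62) and *ZNF140* (1.16). With fewer arrays well above background in a group, they were *ZP2* (-2.22) and *C19ORF69* (-2.21) against LW and *GSTM1* (3.47) against MS, and *RNF182* passed the test against MS with only a bound in MS at day 110.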

How the results depend on the processing

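The 18932 probes called between the ages in MSLW became 11426 in within-slide pairs of the 5 slides that hold both ages and 6897 with a log2 change above 1, and 16906 to 19098 when single day-110 replicates were left out. Under 75th-percentile scaling 53.6% of calls were higher, against 46.6%. The 14 probes that differed from LWMS became 9 with median spot signals, 33 with slide as a block, 4 with only the genotypes compared in the fit, and 9 to 15 without single replicates. The 48 against LW became 31 under 75th-percentile scaling (38.7% more positive, against 27.1%), 25 with only the genotypes compared, and 19 to 67 without single replicates, the lowest without day-110 replicate 4 and the highest without replicate 3. The 37 against MS became 70 with normexp background correction (35.7% more positive, against 67.6%), 124 with slide as a block, 20 without day-110 replicate 3 and day-90 replicate 2, and 22 to 74 without single replicates, the lowest without day-110 replicate 3 and the highest without replicate 1. The age score difference from LW ranged from 0.22 to 0.55 and that from MS from -0.74 to -0.42 without single replicates, and the former passed the test without day-110 replicate 3 (0.55). Under 75th-percentile scaling 11 named genes changed sign: *ACTC1* (0.26), *ATP5G2* (0.40), *COX7A2* (0.53), *IGF2* (0.17), *MYBPC1* (0.33), *MYL1* (0.45), *PSMC1* (0.16), *RPL15* (0.12), *RPL23* (0.15), *RPL30* (0.092) and *TNNC2* (0.44). Of 3201 recomputed changes of 179 named genes, 3103 kept direction and call, 75 lost the call and 12 gained it. Of 606 recomputed differences of 36 genes and genotypes, 146 lost the call, and those of *PLAGL1* from LWMS and LW, *TCEAL1* from LWMS, *ARG2*, *ENPEP* and *PHGDH* from LW and *GSTM1* from MS never did. The cause of these shifts was not tested. The within-slide pairs hold fewer fetuses and were fitted with slide as a block. Beyond these slide pairs, no paired analysis was possible because the labels give no replicate numbers, and those used here follow accession order. A probe below background at 1 age has only a bound there.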

Other observations

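Some genes were well above background at 1 age only. With no array of the other age above background, 25 probes (6 of them with a gene name) were higher at day 110 and 56 (11 named) were higher at day 90, and for these the fold is a lower bound against the dimmest signal counted as above background. *GNMT*, which methylates glycine, was at least 9.08-fold higher at day 110, *PPP1R14C*, an inhibitor of a protein phosphatase, at least 6.41-fold and the fibrinogen-like gene *FGL1* at least 5.85-fold. At day 90 *PCP4*, a calmodulin-binding peptide, was at least 3.29-fold higher, the peptide transporter *SLC15A2* at least 3.07-fold, the centromere chaperone *HJURP* at least 2.90-fold and the kinesin *KIF22* at least 2.85-fold. These genes were chosen for their bounds after the values were seen.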
